A study of Drosophila melanogaster with 6 samples.

Results

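The genes described here are 9 genes of cAMP and memory signalling in the fly: rut, dnc, Pka-C1, Pka-R1, Pka-R2, CrebB, Nf1, orb2 and CaMKII. They were chosen by name as genes of olfactory learning and memory, and all 9 were found by FlyBase identifier among the 17753 genes of the deposited count table. RNA was sequenced from whole heads of adult Drosophila melanogaster after ribosomal RNA depletion, with 50 heads per library from flies 2 to 7 days after eclosion kept at 25 °C and 70% humidity. The control group was the stock wBerlin (3 libraries), and the other group was a knockout of Kdm3, named Kdm3 KO (3 libraries). No other allele or agent is named in the labels for either group. The sources used here do not say how the knockout was made, whether both stocks share a background, or which sex was taken. The labels call the libraries biological replicates without saying whether they came from separate vials, so the p-values measure only the spread between these libraries, which may be technical.

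In Drosophila, odour memories are formed in the Kenyon cells of the mushroom body, where dopamine receptors and calcium entry converge on the production of the second messenger cAMP. The cyclase encoded by rut makes cAMP, the phosphodiesterase encoded by dnc breaks it down, and cAMP frees the catalytic subunit of protein kinase A (PKA) from its regulatory subunits. PKA in turn acts on the transcription factor CREB, while the RNA-binding protein Orb2 and the kinase CaMKII act at synapses in the persistence of a memory. Mutations in rut and dnc are classic learning mutations of the fly.

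The targeted gene Kdm3, a JmjC-domain histone demethylase, was at 32.5, 30.1 and 28.7 CPM (counts scaled to library size, with TMM factors) in wBerlin replicates 1 to 3 and at 3.86, 0.642 and 0.71 CPM in Kdm3 KO replicates 1 to 3. Its log2 fold change was −4.09 (SE 0.49) and it passed edgeR's quasi-likelihood test (adjusted p = 0.00344). Totals ran from 19850981 to 28237382 counts per library. In principal components of log2 CPM, Kdm3 KO replicate 2 stood alone on the first axis (44.1% of the variance), and the genotypes parted on the second (31.6%). For neurons, 11 of 12 markers were tested, 0 were called, and their summed level was 6770 to 8220 CPM in wBerlin and 7000 to 7350 CPM in Kdm3 KO. The neuronal marker onecut, at 0, lies on chromosome 4. Photoreceptor markers summed to 26100 to 36900 and 23900 to 31200 CPM, with 1 of 11 called lower. Over all tested genes 2.15% were called higher and 0.917% lower.

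Of the 9 genes, 8 had counts and passed the filter on low counts, and none of the 8 passed the test between genotypes (0 higher and 0 lower at an adjusted p under 0.05). The background was 3.07% of the 14069 tested genes called, 2.15% higher and 0.917% lower. The 8 genes had a median log2 fold change of −0.07, Kdm3 KO over wBerlin, against 0.04 over all tested genes, and 7 of the 8 values were negative. At an unadjusted p under 0.05 there was 1 lower gene, dnc, and 0 higher genes, where 7.51% of all tested genes were lower and 7.14% higher by that rule. In 3 genes, dnc, Pka-C1 and CrebB, each Kdm3 KO library lay below each wBerlin library, which 9.33% of all tested genes did. The opposite order, found in 9.35% of all tested genes, was seen in 0 of the 8.

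**Figure D1:**
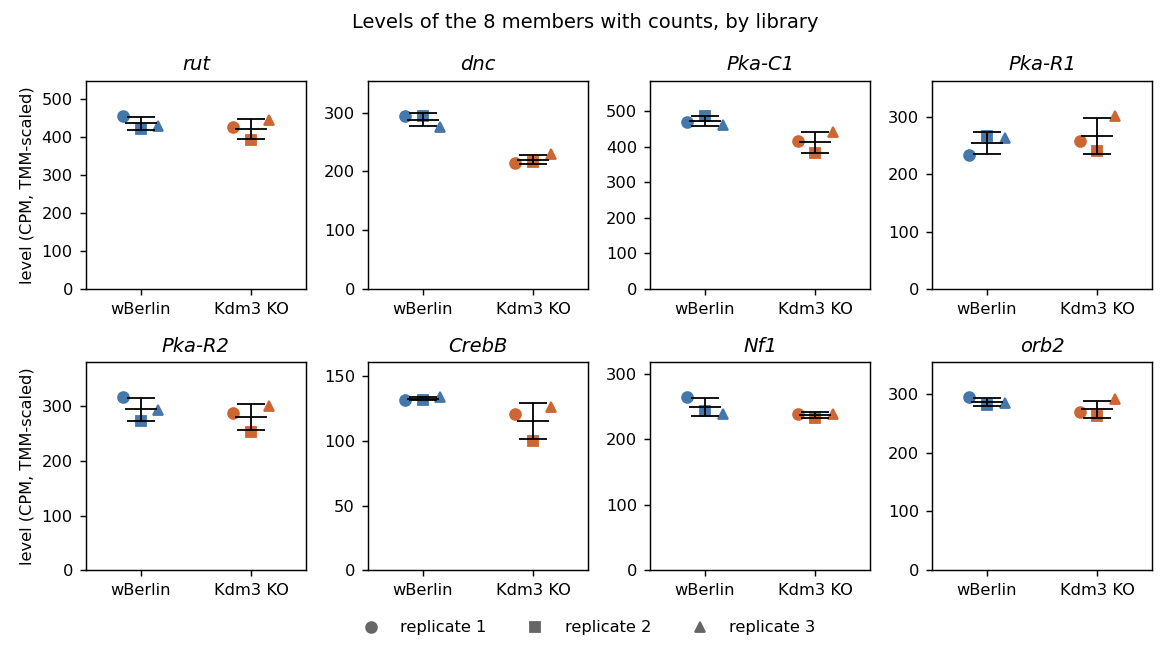
Levels of the 8 genes with counts in CPM (counts scaled to library size with TMM factors, linear axes from 0), with each symbol a library, the wide bar the mean and the whisker the SD of 3 libraries. The dnc panel shows the clearest gap, with wBerlin at 275 to 295 CPM and Kdm3 KO at 215 to 229 CPM, while in rut, Pka-R1, Pka-R2, Nf1 and orb2 the groups overlap.

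The gene rut encodes a calcium- and calmodulin-activated adenylyl cyclase, the enzyme that joins odour and reward or punishment signals into cAMP. It lies on arm X (FBgn0003301, 14787478 to 14826073, minus strand, BDGP6.54). Its level was 456, 422 and 430 CPM in wBerlin replicates 1 to 3 and 427, 392 and 444 CPM in Kdm3 KO replicates 1 to 3, so the groups overlapped. The means were 436 ± 17.8 and 421 ± 26.8 CPM (SD, n = 3), and the log2 fold change was −0.05 (95% interval −0.28 to 0.17, adjusted p = 0.871 by edgeR). On a linear scale that interval runs from −17.6% to 12.8%. Of the rut exons 4.37% of the bases are shared with an RNA annotated on the opposite strand, lncRNA:CR45522, and the sources used here do not say whether the authors' counting used strand.

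The gene dnc encodes the cAMP-specific phosphodiesterase that ends the signal. It lies on arm X (FBgn0000479, 3176440 to 3343767, plus strand), spans 167.3 kb with 17 annotated transcripts, and shares no exon with another gene. Its level was 294, 295 and 275 CPM in wBerlin replicates 1 to 3 and 215, 217 and 229 CPM in Kdm3 KO replicates 1 to 3. The highest knockout library was thus below the lowest control library, and Kdm3 KO replicate 2, which stood apart over all genes, was close to the other knockout libraries.

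The means of dnc were 288 ± 11.2 and 220 ± 7.58 CPM (SD, n = 3), and Kdm3 KO was at 0.765 of the control level. The log2 fold change was −0.39 (SE 0.09, 95% interval −0.59 to −0.18), and it did not pass edgeR's quasi-likelihood test (adjusted p = 0.0557). By p it ranked 482 of 14069 genes, just outside the 432 called. The interval for this gene alone excludes 0, and the p adjusted over all genes misses the threshold of 0.05.

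The side of the threshold on which dnc fell depended on the setting. In 10 of 15 alternatives it was called lower, among them DESeq2 (adjusted p = 0.00368), the filter of 5 CPM in 3 libraries (0.0168) and a fit of 4 libraries, in which wBerlin replicate 1 and Kdm3 KO replicate 2 were both set aside (0.042). In 5 it was not called, namely limma voom (adjusted p = 0.051), the replicate block (0.0641), and the edgeR fits without wBerlin replicate 2 (0.0826), without Kdm3 KO replicate 1 (0.238) and without Kdm3 KO replicate 3 (0.113). The share of all tested genes called lower was 0.988% to 3.39% in the 10 settings and 0.433% to 2.57% in the 5, against 0.917% as reported. The log2 fold change itself moved little, from −0.46 to −0.36 over the 15 alternatives.

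**Figure D2:**
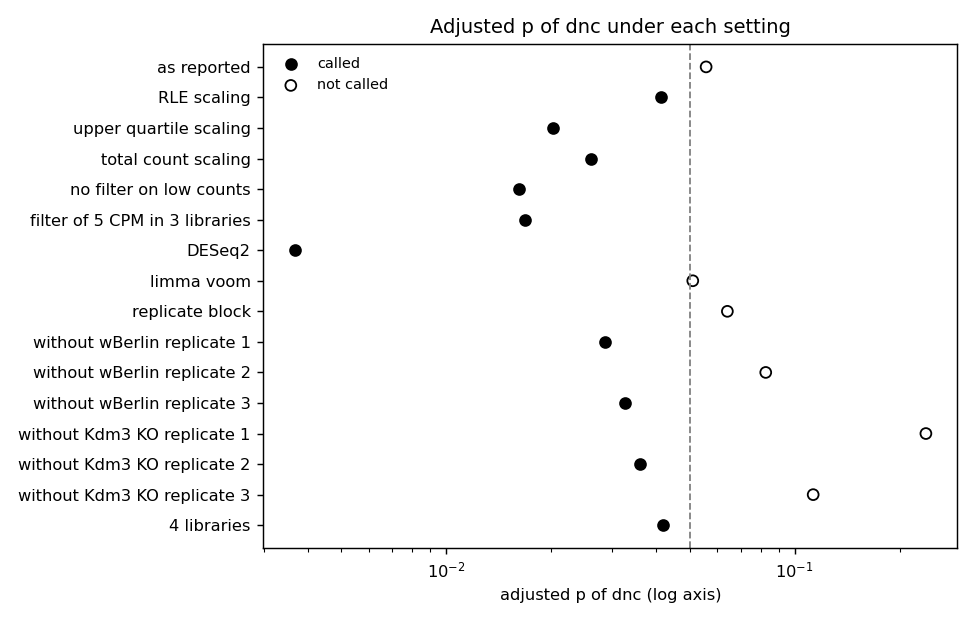
Adjusted p of dnc (log axis) under the reported setting and 15 alternatives, 1 point per setting, with filled points called and the dashed line at 0.05. The reported value, 0.0557, lies just right of the line, DESeq2 is farthest left at 0.00368 and the fit without Kdm3 KO replicate 1 farthest right at 0.238.

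Several measured facts stand beside the dnc values. The Kenyon cell marker list (prt, sNPF, mub, dac, trio, Mef2, ey and toy) summed to 1730 to 1810 CPM in wBerlin and 1480 to 1650 CPM in Kdm3 KO, also with no overlap. Taken singly, 9.33% of all tested genes showed that order. Of its 6 tested markers 0 were called and 1 was lower at an unadjusted p under 0.05, the median log2 fold change was −0.15, and ey and toy, on chromosome 4, were at 0. In whole heads, fewer cells of a type and less RNA per cell cannot be told apart. Among the 258 tested genes with merged exons of at least 10 kb, a class that dnc belongs to at 16.68 kb, the median log2 fold change was −0.14, and 2 were higher and 2 lower. Among the 84 with a span of at least 100 kb, as dnc has, the median was −0.07, with 0 higher and 1 lower. Over all tested genes the median was 0.04, with 2.15% called higher and 0.917% lower. Within 500 kb of dnc 84 other genes were tested, with a median of 0.01. Of these, 1 was called higher and 2 lower (2.38% lower). Over all tested genes 0.917% were lower and 3.07% were called in either direction. The higher one was the eye pigment transporter gene w, 380 kb from dnc. The 7 listed genes nested inside dnc had mean levels of at most 1.35 CPM. The part of cell makeup, gene length or linked sequence in the dnc values was not tested.

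Protein kinase A is the main effector of cAMP, built from catalytic subunits held inactive by regulatory ones. Pka-C1 (FBgn0000273, arm 2L, 9682315 to 9699297, minus strand) encodes the main catalytic subunit. It was at 469, 487 and 460 CPM in wBerlin replicates 1 to 3 and at 415, 381 and 440 CPM in Kdm3 KO replicates 1 to 3. All knockout libraries lay below all control libraries, by a margin of 460 against 440 CPM. The means were 472 ± 13.6 and 412 ± 29.5 CPM (SD, n = 3), and the log2 fold change of −0.20 (95% interval −0.42 to 0.03) did not pass the test (adjusted p = 0.435 by edgeR). That interval reaches from −25.5% to 2.26% on a linear scale, and no alternative called the gene.

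Pka-R1 (FBgn0259243, arm 3L, 20816118 to 20836048, plus strand) encodes the type I regulatory subunit, which binds cAMP and then releases the catalytic subunit. It was at 233, 267 and 263 CPM in wBerlin replicates 1 to 3 and at 258, 240 and 302 CPM in Kdm3 KO replicates 1 to 3. The groups overlapped, although Kdm3 KO replicate 3 lay above each control library. The log2 fold change was 0.07 (95% interval −0.19 to 0.33, adjusted p = 0.85 by edgeR). Its sign turned without wBerlin replicate 1 (−0.05) and without Kdm3 KO replicate 3 (−0.02).

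Pka-R2 (FBgn0022382, arm 2R, 9993890 to 10026042, minus strand) encodes the type II regulatory subunit. It was at 316, 273 and 292 CPM in wBerlin replicates 1 to 3 and at 287, 253 and 299 CPM in Kdm3 KO replicates 1 to 3. The groups overlapped, and the log2 fold change was −0.07 (95% interval −0.31 to 0.17, adjusted p = 0.828 by edgeR). The sign of this value turned in 2 of 15 alternatives, the 4 libraries (0.05) and a fit with 1 library left out, where it rounded to 0.00.

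CrebB (FBgn0265784, arm X, 18366357 to 18377864, plus strand) encodes the CREB transcription factor, which PKA signalling engages in long-term memory. Its level was 132, 132 and 134 CPM in wBerlin replicates 1 to 3, a spread of 1.13 CPM (SD), and 121, 99.9 and 126 CPM in Kdm3 KO replicates 1 to 3, a spread of 13.9 CPM. The 3 knockout libraries were below the controls, with Kdm3 KO replicate 2 the lowest. The log2 fold change was −0.20 (95% interval −0.43 to 0.04, adjusted p = 0.454 by edgeR) and −0.10 without that library, and no alternative called it. Of the CrebB exons 6.89% of the bases are shared with por on the opposite strand. CrebB has 10 annotated transcripts, and counts per gene do not separate activator from repressor forms.

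Nf1 (FBgn0015269, arm 3R, 25983013 to 25995737, plus strand) encodes neurofibromin, a Ras GTPase-activating protein that is also needed for normal cAMP signalling in flies. It was at 264, 243 and 239 CPM in wBerlin replicates 1 to 3 and at 239, 232 and 239 CPM in Kdm3 KO replicates 1 to 3. The knockout libraries sat at the lower edge of the control range, and the log2 fold change was −0.07 (95% interval −0.28 to 0.13, adjusted p = 0.794 by edgeR). On the arm that also carries Kdm3, Nf1 lies 16.5 Mb away from it.

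The gene orb2 (FBgn0264307, arm 3L, 8937100 to 8954463, minus strand) encodes a CPEB-family RNA-binding protein whose oligomers are tied to lasting memory. Its level was 294, 281 and 284 CPM in wBerlin replicates 1 to 3 and 268, 262 and 290 CPM in Kdm3 KO replicates 1 to 3, with overlap through Kdm3 KO replicate 3. The log2 fold change was −0.07 (95% interval −0.28 to 0.14, adjusted p = 0.807 by edgeR). Of the orb2 exons 14.8% of the bases are shared with CG43783 on the same strand, so its count may be incomplete.

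CaMKII (FBgn0264607, chromosome 4, 1035288 to 1053703, minus strand) encodes calcium/calmodulin-dependent protein kinase II, an abundant synaptic kinase. It was listed at 0 in each library, and so were all 111 listed genes of chromosome 4. Its level was therefore not measured here, and the 0 says nothing about its expression.

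**Figure D3:**
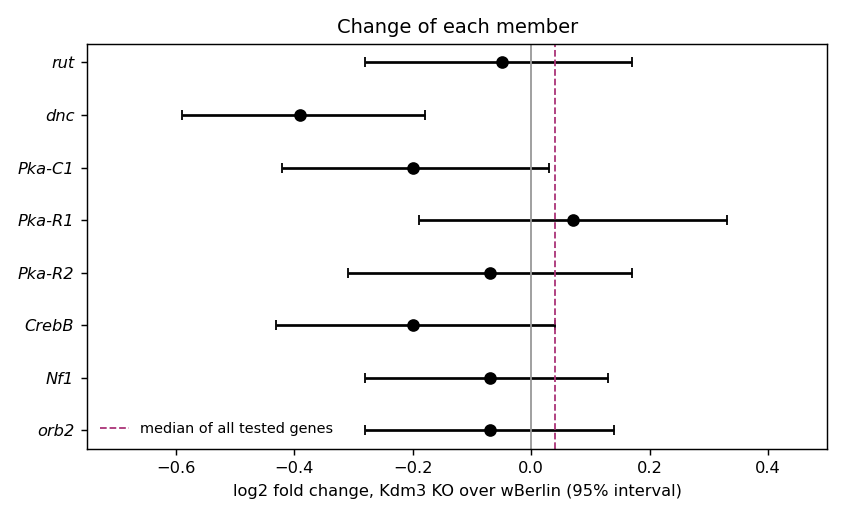
Log2 fold change of each gene with counts, Kdm3 KO over wBerlin, as a point with its 95% interval for that gene alone. The dnc interval, −0.59 to −0.18, lies wholly below 0, the 7 other intervals include 0, and the dashed line marks the median of all tested genes at 0.04.

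Levels can be set between genes only per length, as CPM per kilobase of merged exons, averaged here over the 6 libraries. Pka-C1 was highest at 77.2 CPM per kb, then Pka-R2 at 59.1 and Pka-R1 at 50.5 CPM per kb. The cyclase gene rut followed at 44.6 CPM per kb, orb2 at 31.4, CrebB at 24.9, Nf1 at 24.1 and dnc at 15.2 CPM per kb. Neighbours kept their order in all 6 libraries except for Pka-R1 over rut and CrebB over Nf1, each in 5 of 6. Over all tested genes these levels reached from the 67.1st percentile (dnc) to the 93rd (Pka-C1). Merged exons count each base that any transcript uses, so a gene with many alternative starts, such as dnc, is divided by more bases than any 1 of its transcripts holds.

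Ratios within a library do not depend on library scaling, and 5 were computed on levels per kilobase, the choice being made after the values were seen. The ratio of dnc to rut was 0.372, 0.403 and 0.369 in wBerlin replicates 1 to 3 and 0.291, 0.32 and 0.297 in Kdm3 KO replicates 1 to 3. Relative to the sum of the 5 other phosphodiesterase genes, dnc was at 0.168 ± 0.00726 in wBerlin and 0.129 ± 0.00336 in Kdm3 KO (SD, n = 3). The regulatory subunits together, over Pka-C1, were at 1.33 ± 0.0577 in wBerlin and 1.52 ± 0.0406 in Kdm3 KO (SD, n = 3). In these 3 ratios the groups did not overlap, and each gave p = 0.1 in a two-sided exact permutation test, the smallest p that 3 against 3 libraries allow (0.167 after Benjamini-Hochberg adjustment over the 5 ratios). The ratio of Pka-R2 to Pka-R1 was 1.24 ± 0.184 and 1.12 ± 0.0666 (SD, n = 3, exact permutation p = 0.5), and that of Nf1 to rut was 0.545 ± 0.0127 and 0.539 ± 0.0257 (SD, n = 3, exact permutation p = 0.7).

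**Figure D4:**
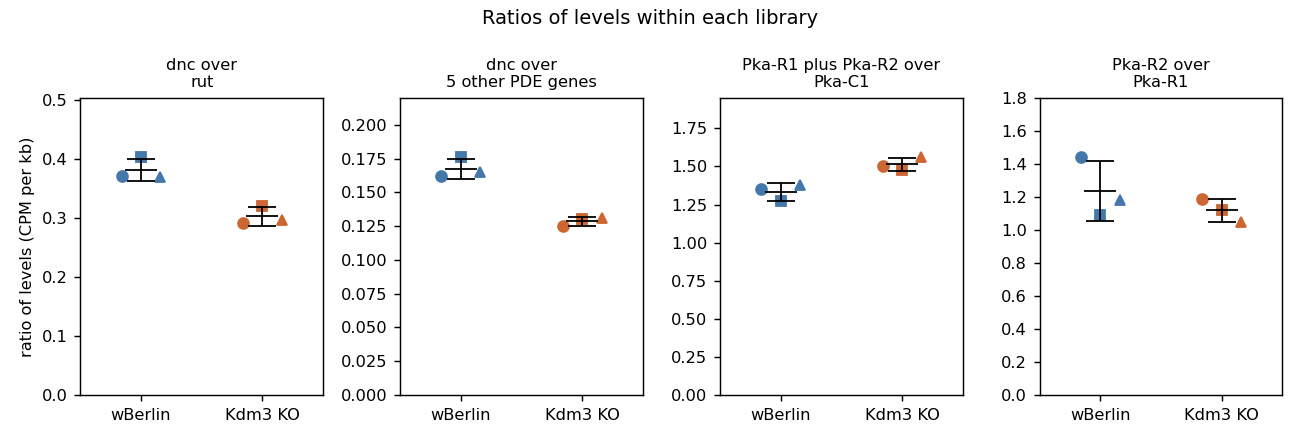
Ratios of levels (CPM per kilobase of exons, linear axes from 0) within each library for 4 of the 5 ratios, with symbols for libraries, the wide bar for the mean and whiskers for the SD of 3 libraries. The dnc ratios are lower in each Kdm3 KO library (0.291 to 0.32 against 0.369 to 0.403 over rut), and the PKA regulatory-to-catalytic ratio is higher in each (1.48 to 1.56 against 1.27 to 1.38).

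Around these genes, 10 lists of the same pathways held 90 genes, of which 87 were tested. Together 1 was higher and 1 lower, 2.3% called, against the background of 3.07%, and their median log2 fold change was −0.05.

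The called lower gene was Hr38, an orphan nuclear receptor gene that neuronal activity induces in insects. It was at 72.8, 66.5 and 64.4 CPM in wBerlin replicates 1 to 3 and at 47, 37.9 and 35.9 CPM in Kdm3 KO replicates 1 to 3, with a wide gap between the groups. Hr38 fell, with a log2 fold change of −0.75 (SE 0.12, adjusted p = 0.00867 by edgeR), and it was called in all 15 alternatives. Each of the 6 activity-regulated genes (Hr38, sr, Arc1, Arc2, kay and Jra) had a negative log2 fold change, with a median of −0.40. Besides Hr38, 3 of them had an unadjusted p under 0.05, kay (−0.58, adjusted p = 0.0593), sr (−0.34, adjusted p = 0.112) and Arc1 (−0.47, adjusted p = 0.31), all by edgeR and named after their values were seen. By that rule 7.51% of all tested genes were lower. Of the 6, 2 were called lower with no low-count filter, by DESeq2 and with the replicate block (Hr38 and kay) and without Kdm3 KO replicate 1 (Hr38 and Arc1), and 3 without wBerlin replicate 1 and in the 4 libraries (Hr38, kay and sr). Over all genes the lower calls were also more frequent in most of these settings, at 1.62% with no filter, 3.16% by DESeq2, 2.57% with the block, 3.24% without wBerlin replicate 1 and 3.39% in the 4 libraries, against 0.917% as reported, and 0.558% without Kdm3 KO replicate 1. Most muscle markers also had lower values in these libraries, with a median log2 fold change of −0.51, 1 of 14 called lower and 0 higher. The values ran from −2.31 to 3.93, with 11 negative and 3 positive. The summed muscle levels overlapped, at 24900 to 48500 CPM in wBerlin and 19400 to 29300 CPM in Kdm3 KO. At an unadjusted p under 0.05, 7 muscle markers were lower and 2 higher, against 7.51% and 7.14% of all tested genes. The part of muscle markers in the values of the activity-regulated list was not tested. The sources used here do not say at what time of day flies were collected.

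The called higher gene was teq, which encodes a neurotrypsin-like protease needed for long-term memory in flies. It was at 392, 390 and 284 CPM in wBerlin replicates 1 to 3 and at 631, 494 and 661 CPM in Kdm3 KO replicates 1 to 3. It rose, with a log2 fold change of 0.74 (SE 0.16, adjusted p = 0.0398 by edgeR). The call ended without wBerlin replicate 2 (adjusted p = 0.087), without wBerlin replicate 3 (0.0711), without Kdm3 KO replicate 1 (0.0939) and without Kdm3 KO replicate 3 (0.116). Fat body markers were higher in the same libraries, summing to 9730 to 15800 CPM in wBerlin and 20600 to 26600 CPM in Kdm3 KO. Of 10 tested markers 4 were called higher, as were 2.15% of all tested genes. The list includes Yp1, Yp2, Yp3 and fit, and the sources used here do not say which sex was taken. The part of fat body markers or of sex in the teq result was not tested. In the list of 13 tested olfactory memory genes that holds teq 0 were called lower, and Orc3 was listed at 0. The median was −0.05. At an unadjusted p under 0.05, 2 were higher and 2 lower, against 7.14% and 7.51% of all tested genes. The lower ones were rsh (−0.27, adjusted p = 0.299 by edgeR) and mura (−0.21, adjusted p = 0.337 by edgeR). Each Kdm3 KO library lay above each wBerlin library in 2 genes, and below in 4, rsh, mura, Nrx-1 and Fas2. The gene cer, a cathepsin inhibitor gene named after its values were seen, had no overlap between groups (0.45, adjusted p = 0.0955 by edgeR). It was called higher beside teq in the 4 libraries (adjusted p = 0.0188), with the 5 CPM filter (0.0241), with Kdm3 KO replicate 2 left out (0.0242), and when scaled by total counts (0.0375) or upper quartiles (0.0445), settings in which 3.01% to 5.72% of all genes were called higher. Of 7 hemocyte markers 1 was called higher, as were 2.15% of all tested genes. In 5 markers each Kdm3 KO library lay above each wBerlin library, and in 1 each lay below. Over all tested genes these shares were 9.35% and 9.33%. The summed hemocyte level overlapped, at 450 to 473 CPM in wBerlin and 432 to 481 CPM in Kdm3 KO.

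Upstream of cAMP, 0 of 14 amine receptor and G protein genes passed in either direction, with values from −0.24 to 0.10 and a median of 0.01. The 2 with the smallest p were the dopamine receptor gene Dop2R (−0.24, adjusted p = 0.412) and the octopamine receptor gene Octbeta2R (−0.18, adjusted p = 0.46). Of the 9 other adenylyl cyclases 0 passed by edgeR. At an unadjusted p under 0.05, 1 was higher, Ac78C, as were 7.14% of all tested genes. The filter of 5 CPM called Ac78C (0.27, adjusted p = 0.0445), but it called 5.72% of all genes higher, against 2.15% as reported. Ac78C was at 42, 39.9 and 43.2 CPM in wBerlin replicates 1 to 3 and at 49.1, 48.8 and 52.3 CPM in Kdm3 KO replicates 1 to 3. All its knockout libraries lay above the controls (0.26, adjusted p = 0.162). That order was seen in 2 of the 9 genes and in 9.35% of all tested genes. Ac13E had a value of −0.26 (adjusted p = 0.479). The median of 0.26 rests in part on ACXA, ACXB, ACXC and ACXE, each at a mean under 4 CPM. In these genes only Kdm3 KO replicate 2 was raised, at 4.63 to 5.23 CPM. Kdm3 KO replicates 1 and 3 were at 1.33 to 2.54 CPM and wBerlin at 1.36 to 2.77 CPM.

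None of the 5 other phosphodiesterase genes passed, and their values lay between −0.20 and 0.14. Pde8 was at 114, 114 and 112 CPM in wBerlin replicates 1 to 3 and at 98.2, 94.6 and 104 CPM in Kdm3 KO replicates 1 to 3 (−0.20, adjusted p = 0.31), and Pde6 had a value of 0.14 (adjusted p = 0.539). Among 7 other PKA subunits, anchors and Epac 0 passed, and the 2 with the smallest p were the anchor gene Akap200 (−0.33, adjusted p = 0.248) and Pka-C3 (−0.25, adjusted p = 0.249).

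Downstream, 0 of 5 CREB partners and kinases passed, and all 5 values were negative with a median of −0.23. The acetyltransferase gene nej, the CREB-binding protein of the fly, was at 318, 339 and 306 CPM in wBerlin replicates 1 to 3 and at 234, 248 and 270 CPM in Kdm3 KO replicates 1 to 3, with no overlap. Its log2 fold change was −0.36 (95% interval −0.58 to −0.13, adjusted p = 0.104 by edgeR). DESeq2 called it (adjusted p = 0.0165), as did 4 other alternatives with adjusted p from 0.0349 to 0.0489. These settings called 1.51% to 3.24% of all genes lower, against 0.917% as reported. In 2 of the 5 genes, nej and CrebA, each Kdm3 KO library lay below each wBerlin library, as in 9.33% of all tested genes. CrebA, a secretory pathway regulator of the same family, had a value of −0.25 (adjusted p = 0.28).

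In the Ras pathway around Nf1, 0 of 11 genes passed by edgeR, with jeb, the ligand of the receptor Alk, at −0.30 (adjusted p = 0.322; without wBerlin replicate 3 it was called, at −0.48 and adjusted p = 0.0417) and RasGAP1 at −0.18 (adjusted p = 0.408). Of the 10 translation partners of Orb2 0 passed by edgeR, and the smallest p belonged to Fmr1, the fly FMRP gene (−0.25, adjusted p = 0.223), and stau, an RNA transport gene (−0.24, adjusted p = 0.332). Fmr1 was called lower with upper quartile scaling (adjusted p = 0.039) and with the filter of 5 CPM (0.0317). Those settings called 1.51% and 3.21% of all genes lower, against 0.917% as reported. The fit without wBerlin replicate 3, which called jeb, called 1.1% lower. Of the 8 calcium signalling genes around CaMKII 7 were tested and 0 passed, with the calcineurin genes CanA-14F (−0.18, adjusted p = 0.455) and CanA1 (−0.24, adjusted p = 0.477) first by p, and CaMKI, on chromosome 4, was listed at 0.

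**Figure D5:**
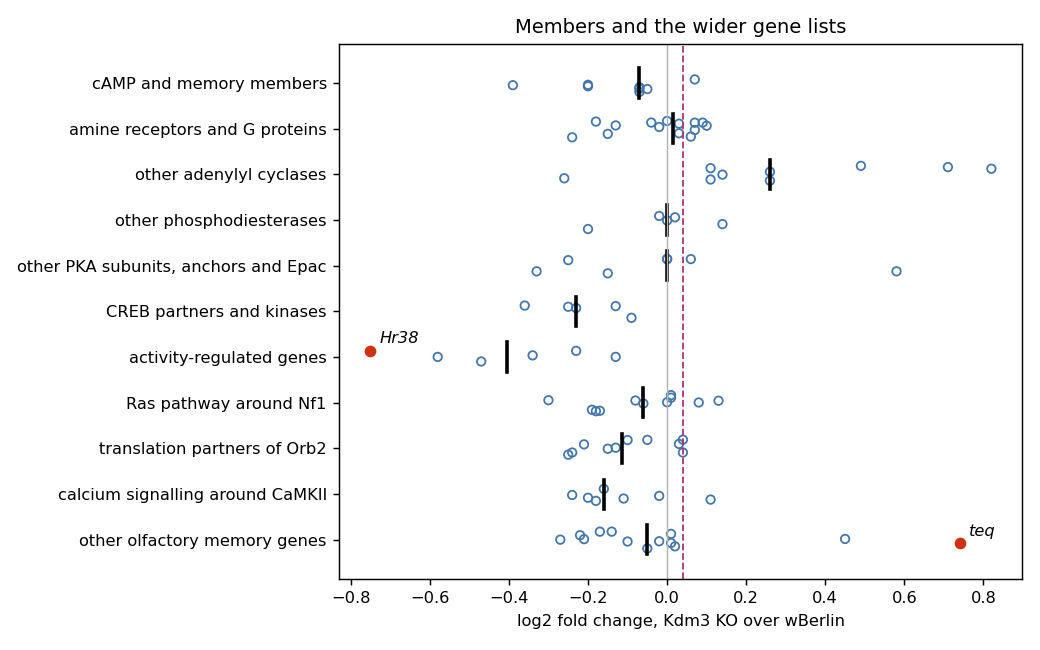
Log2 fold change of each tested gene, Kdm3 KO over wBerlin, by list, with filled points called at an adjusted p under 0.05, black bars for list medians and the dashed line for the median of all tested genes (0.04). Hr38 at −0.75 and teq at 0.74 are the called genes, and dnc at −0.39 is the lowest of the cAMP and memory genes.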

How the data were processed

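Each of the 6 libraries has a column of raw counts per gene, deposited by the authors. Per the submitters' processing notes, STAR, SAMtools, HTSeq and DESeq2 were used with build BDGP6. The sources used here give no version, role or strand setting for them. Symbols, positions and exon lengths come from Ensembl release 115 on BDGP6.54, an assembly of the authors' family, which matched 17626 of 17753 genes.

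From the counts, the genotypes were compared in edgeR 4.0.16 under R 4.3.3 (TMM scaling, filterByExpr by genotype, glmQLFit and glmQLFTest, two-sided), with Benjamini-Hochberg adjustment over 14069 tested genes and calls at an adjusted p under 0.05. SE and 95% intervals come from the same fit. The filter and test were tested on simulated data. Alternatives used DESeq2 1.42.0, limma 3.58.1 voom, other scalings and filters, a replicate block, and libraries left out.

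The members, lists and alternatives were chosen with earlier results of these data known. Named genes were the 9 members, Kdm3, and from each list up to 4 called genes by p, or the 2 with the smallest p. Of the lists, scb matched no row of the table. Glia, muscle and hemocyte marker lists, beside those in the text, summed to 3390 to 3700, 24900 to 48500 and 450 to 473 CPM in wBerlin and 3460 to 4190, 19400 to 29300 and 432 to 481 CPM in Kdm3 KO. Called higher and lower were 0 and 0 of 10 glia, 0 and 1 of 14 muscle and 1 and 0 of 7 hemocyte markers, with median log2 fold changes of 0.05, −0.51 and 0.24. Over all tested genes 2.15% were called higher and 0.917% lower. No library was a copy of another, with 15.4 to 60.2 as chi-square over degrees of freedom within groups.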

Additional observations from a re-analysis of the deposited data

How the results depend on the processing

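No setting called rut, Pka-C1, Pka-R1, Pka-R2, CrebB, Nf1 or orb2, and no setting called a member higher. For dnc the log2 fold change and adjusted p were −0.39 and 0.0414 with RLE scaling, −0.39 and 0.0202 with upper quartile scaling, −0.37 and 0.026 with total count scaling, −0.45 and 0.0162 without a low-count filter, −0.38 and 0.0168 with the filter of 5 CPM, −0.40 and 0.00368 by DESeq2 and −0.36 and 0.042 in the 4 libraries. In each of these 7 settings 1 member was lower, dnc. With 1 library left out dnc was at −0.46 to −0.36 and 0 to 1 members were lower, while rut ranged from −0.12 to 0.00, Pka-R1 from −0.05 to 0.14 and Pka-R2 from −0.16 to 0.00. In the 4 libraries rut was at 0.03 and Pka-R2 at 0.05. The cause of these shifts was not tested.

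Over all genes the calls, 303 higher and 129 lower, ranged from 181 to 574 higher and from 62 to 467 lower with 1 library left out. The lower calls were 212 with upper quartile scaling, 266 with no filter and 362 with the replicate block. Higher and lower calls were 492 and 276 with the filter of 5 CPM, which tests fewer genes, 457 and 359 by DESeq2, and 606 and 476 in the 4 libraries. Same-numbered libraries of the 2 groups had deviations correlated at 0.342, 0.248 and −0.05, and differently numbered ones at −0.326 to 0.18. These values do not settle whether the numbers pair the libraries. With the replicate block dnc was at −0.39 (adjusted p = 0.0641), as without it not called.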
